A study of Mus musculus with 59 samples.

Results

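At day 12 of reprogramming, 4781 CTCF peaks were listed in mouse Oct4-GFP+ cells carrying an shRNA against Ctcf that overlapped no peak of the matching control cells by 1 bp or more. They made up 13.4% of the 35803 peaks of the day 12 Ctcf shRNA list, and the other 31022 peaks overlapped a control peak and serve below as the shared peaks. In the opposite direction, 21981 of 53043 control peaks (41.4%) had no Ctcf shRNA peak, so the Ctcf shRNA-only sites stood beside a loss that was several times larger in number. The sites were chosen by their absence from the day 12 control list, which is therefore not a result, and a missing peak means a site that was not called there, not one shown to be unbound.

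The starting cells were OG2 mouse embryonic fibroblasts, which carry a GFP reporter of Oct4. They were reprogrammed with doxycycline-inducible lentiviral OSKM (Oct4, Sox2, Klf4 and Myc on a single polycistronic construct), a lentiviral rtTA and vitamin C, and both arms carried all of these. Control cells received an shRNA against luciferase and the knockdown cells one against Ctcf. CTCF lists existed for both arms at day 0 (2 ChIP samples an arm), in Thy1+ cells of days 3 and 9, in SSEA1- Thy1- cells of days 6 and 9, in SSEA1+ cells of days 6 and 9 (2 samples an arm each) and in Oct4-GFP+ cells of day 12 (3 samples an arm). For the Thy1+ cells of day 3 the titles contradict other labels on which arm a sample belongs to, and the lists were used as the titles group them. Further CTCF lists came from day 10 cells with retroviral OSKM alone, with added Ctcf, and with added Ctcf plus a Smarca5 shRNA, and from wild-type and Smarca5 knockout E14Tg2a embryonic stem cells (ESCs, 1 sample each). A list of tagged SMARCA5 in E14 ESCs labelled as overexpressing Smarca5 (2 samples) was also used, so it may not show SMARCA5 at its normal level. Each group has 1 peak list over its samples, so no comparison has a replicate check and none has a p-value. Intervals are 95% Wilson intervals, which cover counting error only. Peak lists hold no expression values, so neither the knockdown of Ctcf nor the identity of the sorted cells could be checked here.

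CTCF is a zinc finger protein that binds an asymmetric DNA motif, halts cohesin as it extrudes chromatin loops and so marks the borders of many contact domains. Most CTCF sites are occupied in many cell types, while a minority come and go with cell identity, often together with DNA methylation or chromatin remodelling. SMARCA5, the ATPase of ISWI remodellers, spaces nucleosomes around CTCF sites and favours CTCF binding. In reprogramming, fibroblasts first lose Thy1, a surface marker of the somatic state, then gain SSEA1, a surface marker of early pluripotency, and last switch on Oct4.

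The sites are intervals of 400 bp, and of the 4609 that lie on chromosomes for which promoter sequence was at hand, 193 (4.19%) overlapped the 300 bases around a RefSeq gene start. Sequence is shown for 1 promoter of each of the 4 classes described below, to set sequence beside the lists that hold the site. The capitals mark a match, on either strand, to 12 core letters of the CTCF motif, which read CC, any base, C, any base, AG, any 2 bases, G, any base and C. These examples were chosen after their values were seen, as the protein-coding promoters with a match in the site and presence in the most other lists, or, for the class with no such promoter, without a match. A match is the exception, found in 6 of the 145 sites that cover at least 60 bases before a protein-coding start. Each is the 250 bases before a gene start, 5′ to 3′ along the gene's own strand, from RefSeq on GRCm38.p6.
Gpi1, chr7:34230337-34230586, minus strand: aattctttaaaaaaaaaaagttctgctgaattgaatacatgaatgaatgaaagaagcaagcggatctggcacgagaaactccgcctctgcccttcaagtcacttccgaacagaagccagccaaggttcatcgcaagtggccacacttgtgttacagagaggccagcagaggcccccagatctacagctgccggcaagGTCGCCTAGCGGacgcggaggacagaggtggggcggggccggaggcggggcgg
Prpf31, chr7:3629735-3629984, plus strand: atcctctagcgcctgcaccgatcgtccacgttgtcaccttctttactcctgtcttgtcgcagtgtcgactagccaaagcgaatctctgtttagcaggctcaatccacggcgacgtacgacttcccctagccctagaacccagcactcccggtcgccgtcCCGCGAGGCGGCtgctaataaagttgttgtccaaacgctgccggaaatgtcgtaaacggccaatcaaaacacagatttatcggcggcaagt
Aptx, chr4:40703195-40703444, minus strand: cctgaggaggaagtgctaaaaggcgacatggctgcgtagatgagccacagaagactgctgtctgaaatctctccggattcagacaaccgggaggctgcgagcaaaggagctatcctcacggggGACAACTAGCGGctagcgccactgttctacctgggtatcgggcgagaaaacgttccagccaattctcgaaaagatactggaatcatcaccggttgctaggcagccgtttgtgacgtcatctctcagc
Bcl2l11, chr2:128127325-128127574, plus strand: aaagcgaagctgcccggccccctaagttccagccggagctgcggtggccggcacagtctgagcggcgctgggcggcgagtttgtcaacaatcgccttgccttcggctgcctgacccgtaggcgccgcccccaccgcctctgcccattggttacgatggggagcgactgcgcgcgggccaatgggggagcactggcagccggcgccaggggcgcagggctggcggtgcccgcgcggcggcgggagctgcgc
The site at Gpi1, which encodes a glycolytic isomerase, was held by 11 of the 13 other CTCF lists, including all 6 lists of earlier sorted cells and both ESC lists. The site at Prpf31, a splicing factor gene, was held only by the 2 Thy1+ lists. The site at Aptx, a DNA strand break repair gene, was held by 4 lists, which were both ESC lists and the day 10 lists with added Ctcf. The site at Bcl2l11, the gene of the pro-apoptotic protein BIM, has no match in the stretch shown, and was held by the 3 day 10 lists and by SMARCA5 in ESCs.

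Most of the Ctcf shRNA-only sites, 4128 of 4781 (86.3%), were also listed in earlier control cells or in wild-type ESCs. Of the 4781 sites, 2528 (52.9%, 51.5 to 54.3) overlapped a peak of an earlier control list, that is day 0, Thy1+, SSEA1- Thy1- or SSEA1+, and 3415 (71.4%, 70.1 to 72.7) a peak of wild-type ESCs. Among the shared peaks these shares were 95.1% and 95.8%. Both shares were lower for the Ctcf shRNA-only sites than for the shared peaks on each of the 20 chromosomes compared (1 to 19 and X). The chromosomes come from the same lists, so they are not replicates of the comparison. These readouts give 4 classes, in which ESCs means the wild-type ESC list. The first, in an earlier control list and in ESCs, held 1815 sites (38.0%), against 92.4% of the shared peaks. The second, in an earlier control list only, held 713 (14.9%), against 2.75%. The third, in ESCs only, held 1600 (33.5%), against 3.42%. The fourth, in neither, held 653 (13.7%), against 1.44%. The control peaks without a Ctcf shRNA peak lay between these compositions, with 76.0% in the first class, 5.46% in the second, 15.1% in the third and 3.52% in the fourth.

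**Figure D1:**
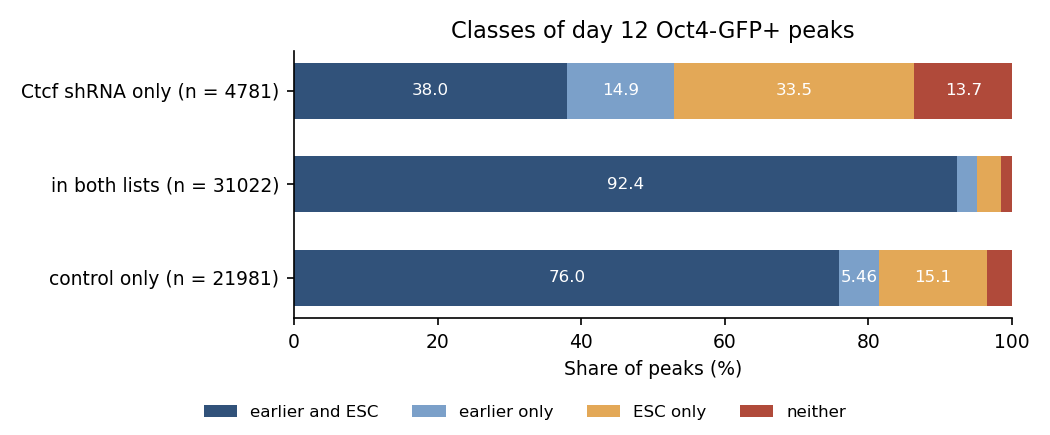
Share of day 12 Oct4-GFP+ peaks (%, x axis) in each of 4 classes, for peaks only in the Ctcf shRNA list (4781), peaks in both lists (31022) and peaks only in the control list (21981). The class found in ESCs only takes 33.5% of the Ctcf shRNA-only sites and 15.1% of the control-only sites.

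The Ctcf shRNA-only sites were also held by fewer lists each. The median site was in 3 of the 13 other CTCF lists, while the median shared peak was in all 13. Only 49 sites (1.02%) were in every other CTCF list, against 16592 shared peaks (53.5%), and 348 sites (7.28%) were in none, against 345 shared peaks (1.11%). Between these ends, 1963 sites were in 1 or 2 other lists, 1782 in 3 to 7 and 639 in 8 to 12.

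**Figure D2:**
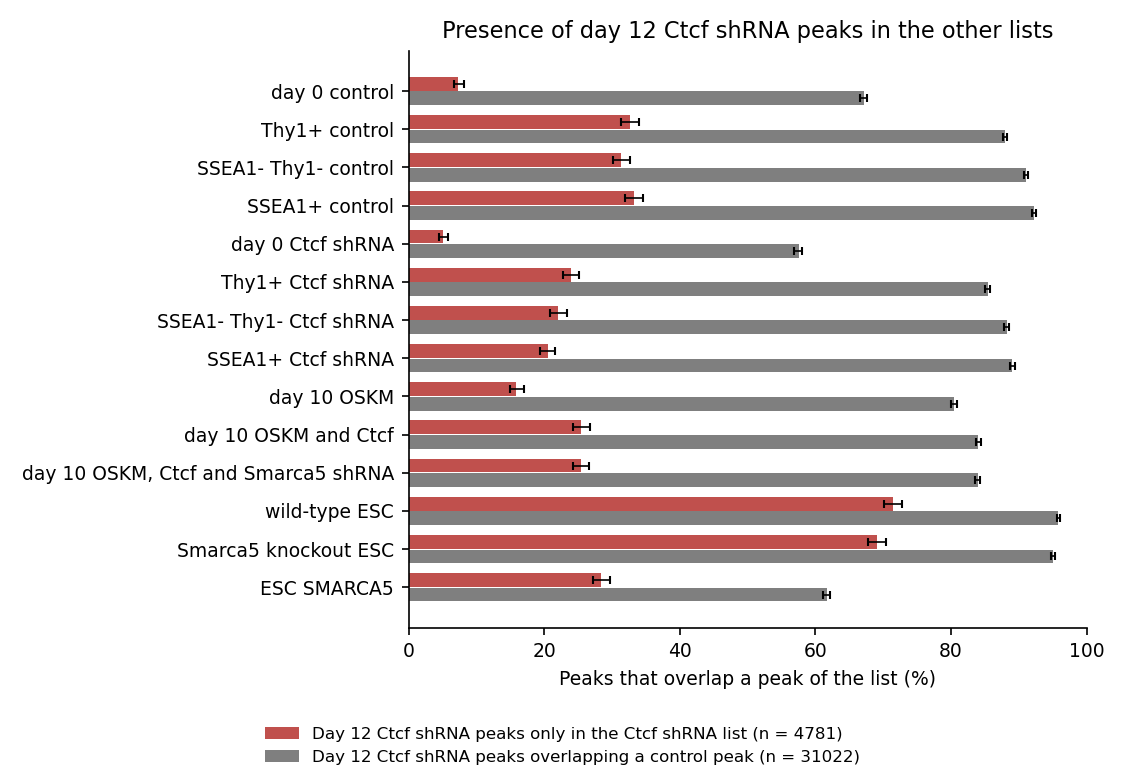
Share (%, x axis) of the 4781 Ctcf shRNA-only sites (red) and the 31022 shared peaks (grey) that overlap a peak of each other list, with 95% Wilson intervals. The red bars are longest for the ESC lists, at 71.4% and 69.1%, and shortest for the day 0 lists, at 7.34% and 5.15%.

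The sites were found at near equal shares in the 3 sorted control lists and least often at day 0, and the shared peaks were also found least often at day 0. The day 0 control list held 351 of the sites (7.34%), the Thy1+ list 1563 (32.7%), the SSEA1- Thy1- list 1499 (31.4%) and the SSEA1+ list 1588 (33.2%). The intervals of the Thy1+ and SSEA1+ shares overlap, and the day 0 list, which is the shorter one with 28838 peaks, stands apart. Among the shared peaks the shares were 67.1% at day 0, 88.0% in Thy1+, 91.1% in SSEA1- Thy1- and 92.2% in SSEA1+. Across the 3 sorted control lists, 765 sites were in every one. A further 460 were in Thy1+ alone, 352 in SSEA1+ alone, 229 in SSEA1- Thy1- alone, and 319 in SSEA1- Thy1- and SSEA1+ but not in Thy1+. No sorted control list held the remaining 2318 sites (48.5%).

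Read from the earlier cells, the sites form a small part of what the day 12 control list had lost. The SSEA1+ control list had 8025 peaks absent from the day 12 control list, and 1588 of them (19.8%) were in the day 12 Ctcf shRNA list. Of the SSEA1+ peaks that the day 12 control kept, 65.1% were there. The same shares were 14.1% and 65.5% for the Thy1+ control list, 16.7% and 77.5% for day 0, and 10.2% and 59.7% for wild-type ESCs. Of the 1588 sites in the SSEA1+ control list, 772 (48.6%, 46.2 to 51.1) were also in the SSEA1+ Ctcf shRNA list, against 95.3% of the shared peaks in that control list. About as many were therefore listed in the SSEA1+ control cells but not in the SSEA1+ cells with the Ctcf shRNA.

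The sites found in ESCs but in no earlier control list were seldom in a Ctcf shRNA list of sorted cells, as were the shared peaks of this class. Low shares here follow largely from how the class is defined, because it leaves out every peak of the sorted control lists. Only 5.50% of the Thy1+, 5.73% of the SSEA1- Thy1- and 4.51% of the SSEA1+ Ctcf shRNA peaks lie outside the control list of the same cells. Of the 1600, 1480 (92.5%) were also in the Smarca5 knockout ESC list, while the Thy1+, SSEA1- Thy1- and SSEA1+ Ctcf shRNA lists held 47 (2.94%), 55 (3.44%) and 58 (3.62%). The 1062 shared peaks found in ESCs only had 93.0% in the knockout list and 4.80%, 6.87% and 8.76% in these Ctcf shRNA lists. The day 10 lists held 112 of them with OSKM alone, 217 (13.6%) with added Ctcf, and 210 (13.1%) with added Ctcf and the Smarca5 shRNA, against 121, 205 (19.3%) and 197 (18.5%) of those shared peaks. Over all classes, 1165 sites were held by the 2 ESC lists and by no other CTCF list. These ESC lists are the longest of the study, with 83173 and 89567 peaks.

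Fewer of the Ctcf shRNA-only sites than of the shared peaks carried SMARCA5 in ESCs. The tagged protein, in ESCs overexpressing Smarca5, had a peak at 1359 sites (28.4%, 27.2 to 29.7), against 61.7% of the shared peaks. By class the share was 36.7% for sites in an earlier list and ESCs, 37.1% for ESC-only sites, 6.45% for earlier-only sites and 8.27% for sites in neither. Within matching classes the shared peaks had 64.0%, 50.8%, 24.7% and 10.1%. In the last class the intervals of sites (6.39 to 10.6) and shared peaks (7.63 to 13.2) overlap. A lower share than in the shared peaks was not particular to day 12. The Ctcf shRNA-only sites had 36.4% against 68.7% at day 0 and 34.0% against 56.9% in Thy1+ cells. They had 31.5% against 56.8% in SSEA1- Thy1- cells and 34.6% against 56.5% in SSEA1+ cells.

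The class in neither an earlier control list nor ESCs splits further. Of its 653 sites, 348 (53.3%, 49.5 to 57.1) were in no other CTCF list, a lower share than the 345 of 446 shared peaks of this class (77.4%, 73.2 to 81.0) and the reverse of the order over all classes. A Ctcf shRNA list of sorted cells held 146 (22.4%, 19.3 to 25.7), against 16.4% (13.2 to 20.1) of the shared peaks. These intervals overlap, as do those for each of the 3 such lists taken alone. A day 10 or Smarca5 knockout ESC list held 64 (9.80%, 7.75 to 12.3), against 7.17% (5.13 to 9.95), and these intervals overlap too. The day 0 Ctcf shRNA list held 103 (15.8%, 13.2 to 18.8), against 6 of the 446 shared peaks of this class (1.35%). Of these 103, 101 were in no further CTCF list and 0 in a Ctcf shRNA list of the sorted cells between. They lay far from control peaks, at a median of 26099 bp, against 4640 bp for the rest of the class. Ctcf shRNA peaks in no control list and not in wild-type ESCs numbered 717 at day 0, 253 in Thy1+, 224 in SSEA1- Thy1- and 235 in SSEA1+ cells. Where day 0 was set against Thy1+, SSEA1- Thy1- and SSEA1+ in the same way, the sites in common numbered 1, 1 and 2. As a share of each such set, the day 12 class held 14.4% for day 0, 18.6% for Thy1+, 24.6% for SSEA1- Thy1- and 25.1% for SSEA1+. One of the 103 sites is inside Fbn1, which encodes the matrix protein fibrillin, at chr2:125343217-125343616.

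The positions of these recurring sites differ from those of other overlaps between the same lists. Of the 103 sites, 101 (98.1%, 93.2 to 99.5) have exactly the same start and end in the day 0 Ctcf shRNA list. Of the 17835 shared peaks that overlap a day 0 Ctcf shRNA peak, 309 (1.73%) coincide exactly. When exact matches were not counted, 2 of 653 sites (0.306%) remained. Exact matches were also more frequent for sites in the wild-type ESC list, at 613 of 3415 (18.0%) against 1291 of 29722 shared peaks (4.34%), and in the day 0 control list, at 53 of 351 (15.1%) against 294 of 20814 (1.41%). In the day 10 OSKM list they were not, at 12 of 760 (1.58%) against 751 of 24943 (3.01%). The way the authors set positions across lists is not given in the sources used here, and its part in the recurrence was not tested.

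Compared with the Ctcf shRNA-only sites of the other cells, those of day 12 were the largest set and the one least often seen elsewhere in the series' control lists. The equivalent sets had 2457 sites at day 0 (10.4% of that Ctcf shRNA list), 2490 in Thy1+ (5.50%), 2536 in SSEA1- Thy1- (5.73%) and 2011 in SSEA1+ cells (4.51%). A control list of the other reprogramming cells held 52.9% of the day 12 sites, against 68.9% at day 0, 78.4% in Thy1+, 80.3% in SSEA1- Thy1- and 74.4% in SSEA1+. Another Ctcf shRNA list held 41.4% of the day 12 sites, against 61.4% to 69.3% of the other 4 sets. The shared peaks of these populations also differed, with 95.1% in such a control list at day 12 against 96.7% to 99.6% in the others, and 92.9% in another Ctcf shRNA list against 92.5% to 99.3%. The share in neither a control list nor ESCs was not extreme at day 12, at 13.7% against 29.2% at day 0 and 8.83% to 11.7% in the sorted cells. Presence in wild-type ESCs did not stand apart, with 71.4% at day 12 and 64.8% to 75.5% in the others. The day 12 control list has 53043 peaks and the Ctcf shRNA list 35803, a wider gap in length than in any of the other pairs, and the part of list length in these shares was not tested.

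**Figure D3:**
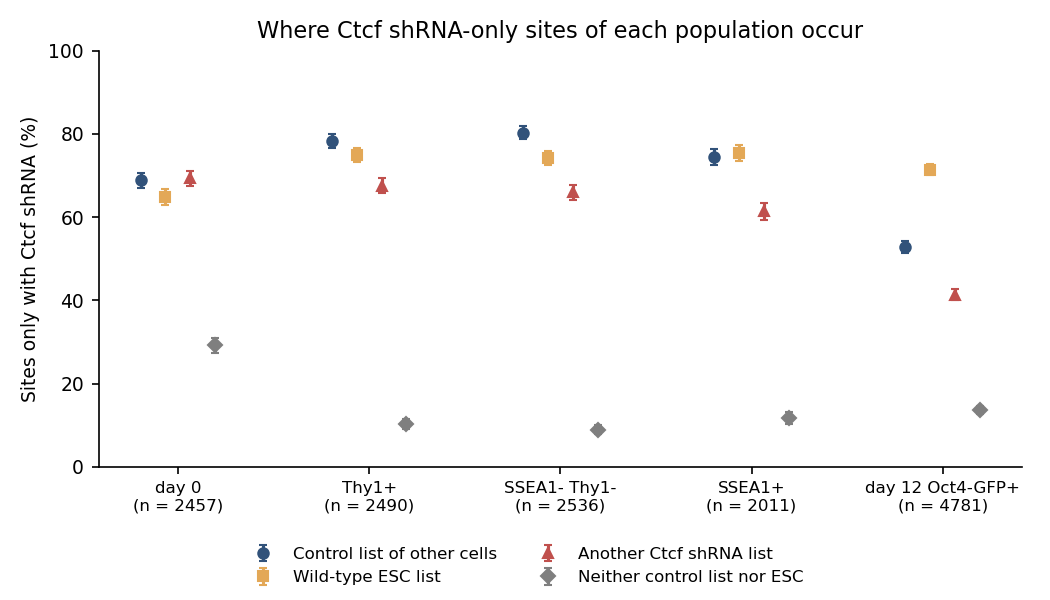
Share (%, y axis) of the Ctcf shRNA-only sites of 5 cell populations (x axis, with their numbers) that overlap a control list of other reprogramming cells, the wild-type ESC list, another Ctcf shRNA list, or neither a control list nor ESCs, with 95% Wilson intervals. Day 12 has the lowest control share, 52.9%, and the lowest share in another Ctcf shRNA list, 41.4%.

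Most sites lay kilobases away from a control peak. The median distance to the nearest day 12 control peak was 10208 bp (quartiles 4168 and 25674), and 362 sites (7.57%) lay within 1 kb. At the edge of the rule, 4 sites lay 50 bp or less from a control peak, the closest at 4 bp, while 0 shared peaks overlapped by 50 bp or less and 31019 of 31022 overlapped over the full 400 bp. The classes differed in this. Within 1 kb lay 137 of the 653 sites in neither (21.0%) and 80 of the 713 earlier-only sites (11.2%), against 4.41% and 4.06% of the classes found in ESCs. A control peak without a Ctcf shRNA peak lay within 10 kb of 25.5% of the sites and of 25.6% of the shared peaks, shares whose intervals overlap.

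**Figure D4:**
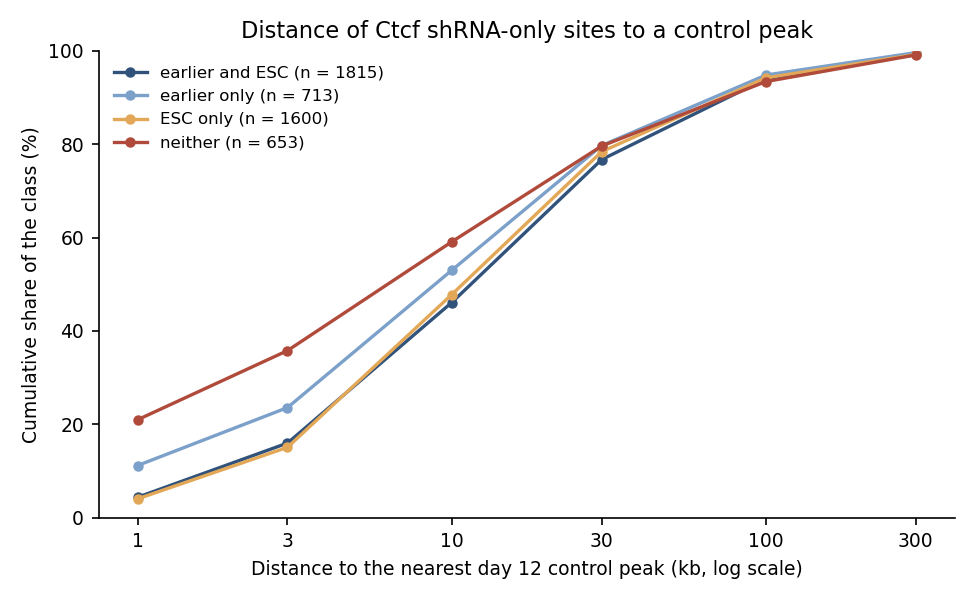
Cumulative share (%, y axis) of each class of Ctcf shRNA-only sites by distance to the nearest day 12 control peak (kb, log scale, x axis), read at 1, 3, 10, 30, 100 and 300 kb. The class in neither list starts highest, with 21.0% of its sites within 1 kb, and the classes found in ESCs start at 4.41% and 4.06%.

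Beyond 100 kb from any control peak lay 281 sites (5.88%). The farthest of all was at chrX:31225345-31225744, which was 4458 kb from a control peak, was in neither an earlier control list nor ESCs, and was held by the 3 day 10 lists. The next in its class were at chr14:107706786-107707185 (940 kb), held by the SSEA1- Thy1- Ctcf shRNA list, and chr14:85342667-85343066 (895 kb), held by the day 0 Ctcf shRNA list. Among ESC-only sites the farthest were at chr14:85252833-85253232 (805 kb) and chr4:92348967-92349366 (513 kb), and that at chr15:16130991-16131390 (472 kb) also carried SMARCA5. Among earlier-only sites the farthest were at chr5:79708791-79709190 (799 kb) and chr16:79901518-79901917 (733 kb), the latter held by 7 lists from day 0 to SSEA1+. The one at chr5:70987640-70988039 (316 kb), inside the GABA receptor gene Gabra2, was in 4 lists of sorted cells. Among sites in earlier lists and ESCs, the farthest were at chr18:48440965-48441364 (688 kb), in 8 lists, and chrX:14445724-14446123 (608 kb), in 5, neither with SMARCA5. The one at chr14:85033876-85034275 (586 kb) was in 8 lists and carried SMARCA5.

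Gene starts were as frequent under the sites as under the shared peaks, at 4.19% and 4.33%. By class the share was higher for the sites in earlier lists and ESCs, at 5.25% (4.30 to 6.39) against 4.05% (3.82 to 4.29). It was 4.38% (3.08 to 6.18) against 7.13% (5.57 to 9.09) for earlier-only sites, where the intervals overlap, and 2.98% (2.24 to 3.95) against 5.69% (4.44 to 7.27) for ESC-only sites. Of the shared peaks in neither an earlier control list nor ESCs, 60 of 433 (13.9%, 10.9 to 17.4) lay on a gene start, against 25 of 625 Ctcf shRNA-only sites of this class (4.00%, 2.72 to 5.84). The 12 core letters given above occurred on either strand in 24 of 239 promoters under the sites (10.0%, 6.84 to 14.5). It occurred in 358 of 1541 promoters under shared peaks (23.2%, 21.2 to 25.4) and in 2191 of all 32851 promoters (6.67%). Median GC content was 60.3% and 59.7% for these groups of promoters and 52.7% for all. A match is a description of letters and not a binding site.

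The promoter sites named here are the 5 of each class held by the most other lists, and so are not typical of their class. In earlier lists and ESCs, the start of the long non-coding RNA Gm33083 was in all 13 other lists, those of the kinase gene Dstyk and the acylphosphatase gene Acyp2 in 12, and those of Oser1 and the lectin gene Clec2h in 11. Among earlier-only sites, the starts of the sphingomyelin synthase gene Sgms1 and the serine protease gene Prss23 were in 6 and 5 lists, followed by Afg1l with 4, the cytochrome c oxidase subunit gene Cox8a with 3 and 2810408I11Rik with 2. Among ESC-only sites, the starts of the myelin gene Mobp and of Mtmr12 were in 6 lists, and those of Cavin2, a caveola component, Samhd1, a nucleotide hydrolase, and Rps6, a ribosomal protein, in 5. In neither, Bcl2l11, the autophagy gene Wipi2 and Trip10 were in 3, and Fnip2 and Gm4924 in 2. The sites at Trip10, Fnip2 and Gm4924 lay 579, 710 and 835 bp from a control peak, and those at Sgms1 and Afg1l 507 and 778 bp. Such sites no longer count when peaks within 1 kb are taken as shared. The site at Wipi2 was in the Thy1+, SSEA1- Thy1- and SSEA1+ Ctcf shRNA lists and in no control list, a pattern of presence with the Ctcf shRNA in every sorted population.

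The sites were spread over many genes. Of the 4781, 2629 (55.0%) lay inside a protein-coding gene span and 3325 (69.5%) within 10 kb of one, against 50.9% and 70.3% of the shared peaks. They touched 3485 of 21887 protein-coding genes at that distance, and 2957 of these had 1 site and 107 had 3 or more. At 326 of the 3485 genes no day 12 control peak lay within 10 kb, so by the rule every Ctcf shRNA peak there is such a site. Genes with a control peak and no Ctcf shRNA peak were not counted, so this number shows no net gain.

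Rere, which encodes a nuclear receptor coregulator, had the most sites, with 8 among the 16 Ctcf shRNA peaks inside or within 10 kb of its span of 340 kb. Of the 8, 5 were in earlier lists and ESCs, 2 in earlier lists only and 1 in ESCs only. Slc9b2, a sodium and proton exchanger gene, had 5 sites among 7 peaks inside or within 10 kb of its span of 35 kb, where the control list had 3 peaks, and its sites fell in all 4 classes. Sfi1, a centrosome gene, had 5 among 14, of which 0 were in ESCs only. Near-identical copies of parts of Sfi1 exist in the mouse genome, so its peaks are uncertain. There were 18 genes with 4 sites each. Those in which the sites made up the largest share of the peaks included the phosphodiesterase gene Pde7b, the microtubule protein gene Map4, the receptor genes Ptprt and Robo2, the glypican gene Gpc6, Stard13, the fatty acid synthesis enzyme Acaca, and Lhfpl3. Pde7b had 6 Ctcf shRNA peaks against 3 control peaks, and Robo2 had 8 against 14. Several of these genes are long, with spans of 1555 kb for Robo2 and 1139 kb for Ptprt, against a median of 17 kb for protein-coding genes.

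Near 14 lists of genes linked to the cells and the treatment, 60 of 489 Ctcf shRNA peaks (12.3%, 9.65 to 15.5) had no control peak, a share near the 13.4% of the whole list. By class, 20 were in earlier lists and ESCs, 10 in earlier lists only, 24 in ESCs only and 6 in neither. A control peak lay within 1 kb of 6 of the 60, which no longer count when peaks that close are taken as shared. The shares ran from 1 of 27 (3.70%) near trophoblast and primitive endoderm genes to 10 of 50 (20.0%) near the pluripotency network, and every list's interval includes 13.4%.

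**Figure D5:**
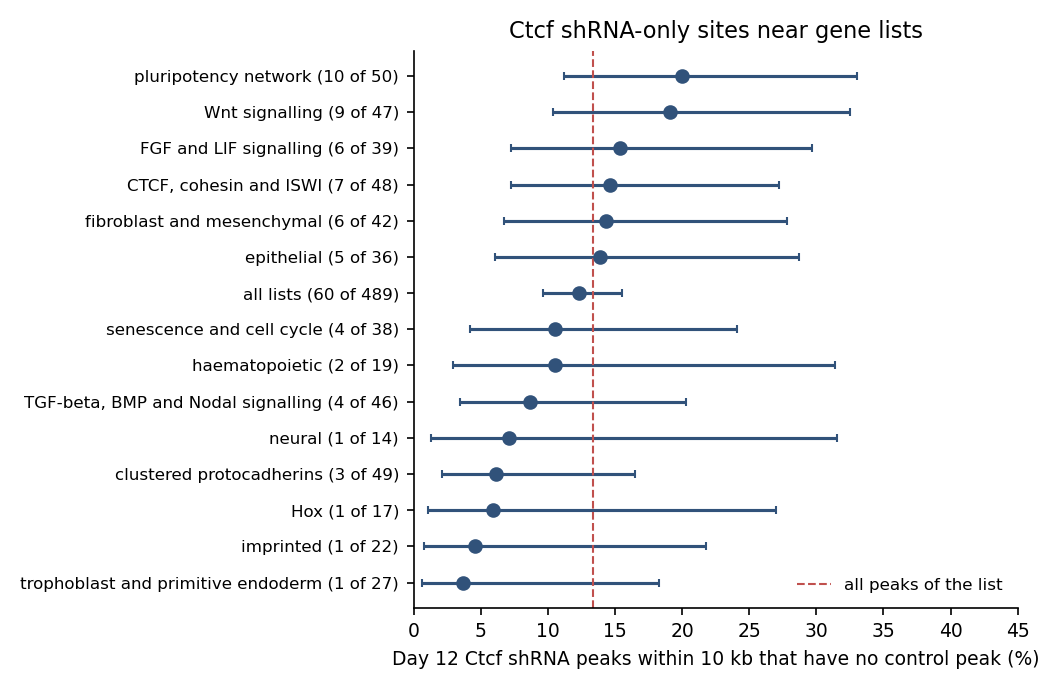
Share (%, x axis) of day 12 Ctcf shRNA peaks within 10 kb of the genes of 14 lists, and of all lists together, that overlap no control peak, with 95% Wilson intervals and the counts in parentheses. The dashed line is the share over the whole list, 13.4%, and every interval includes it.

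Of the 10 sites near pluripotency network genes, 6 were in ESCs only. These lay inside Esrrb, an orphan nuclear receptor of the network, inside Tet1, a DNA demethylating enzyme, inside the DNA methyltransferase cofactor Dnmt3l, inside Jarid2, a Polycomb cofactor, and within 10 kb of Lefty1, a Nodal antagonist, and of the DNA methyltransferase gene Dnmt3b. The site at Esrrb, chr12:86501937-86502336, was in both ESC lists and no other CTCF list, and carried SMARCA5. That at Tet1, chr10:62868545-62868944, was in the ESC lists and the SSEA1+ Ctcf shRNA list. Jarid2 had 2 more, of which 1 was in 7 lists and 1, lying 0.470 kb from a control peak, in the SSEA1+ control list alone. Pou5f1, the gene of Oct4 itself, had 2. The one at chr17:35503935-35504334, 1.70 kb outside the gene span, was in no other CTCF list, and the one at chr17:35498808-35499207 was in 5, including the 3 day 10 lists, and lay 0.832 kb from a control peak.

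Near fibroblast and mesenchymal genes there were 6 sites among 42 peaks. The site inside Col1a1, a chain of fibrillar collagen, was in 11 other lists including both day 0 lists, and lay 1.94 kb from a control peak. The one inside Prrx1, a mesenchymal transcription factor gene, was in 8. The site inside Col5a2 was in 4 lists of sorted cells, and those inside Fn1, the fibronectin gene, and Cdh2, the N-cadherin gene, were in the 2 ESC lists alone. Among epithelial genes, the site inside Dsp, the desmoplakin gene, was in 9 lists, and Tjp1 and Cdh3, genes of tight and adherens junctions, had 2 each, and both Cdh3 sites lay within 1 kb of a control peak. Among genes of other lineages, 1 of 27 peaks near the trophoblast and primitive endoderm list was such a site, 1 of 14 near the neural list and 2 of 19 near the haematopoietic list. At 50 kb the first of these was 9 of 63 (14.3%). The site near Eomes was in 6 lists, that inside Runx1 in 11, and that inside Gfi1b in the ESC lists alone.

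The Wnt genes had 9 sites among 47 peaks (19.1%). The site inside Fzd7, a Wnt receptor gene, at chr1:59483737-59484136, was in all 13 other CTCF lists and carried SMARCA5, and the day 12 control list had no peak within 10 kb of the gene. The coreceptor genes Lrp5 and Lrp6 had 1 site each, in 6 and 3 lists. Genes of the complex that degrades beta-catenin held the 3 Wnt sites that were in neither an earlier control list nor wild-type ESCs. Of these, Apc had 1 and Gsk3b 2, 1 of them 0.435 kb from a control peak and the other in the Smarca5 knockout ESC list. Another Gsk3b site was in ESCs only. Tcf7l1, a transcriptional repressor of the pathway in ESCs, had 2, both in the 2 ESC lists alone. In FGF and LIF signalling there were 6 sites among 39 peaks. Those inside Lifr, the receptor gene of LIF, and Grb2, an adaptor gene of FGF receptors, were in the ESC lists alone. Stat3, the transcription factor downstream of LIF, had 1 of that kind and 1 in 5 lists of sorted cells. Dusp6, an ERK phosphatase gene, had 1 site in 5 lists and no control peak within 10 kb. Fgfr2 had 1, held by the SSEA1+ control list.

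At the gene of CTCF itself the day 12 control list had 3 peaks and the Ctcf shRNA list 1, which overlapped none of them. This site, chr8:105664027-105664426, inside the gene span and 2.51 kb from a control peak, was in no other CTCF list. Stag1, a cohesin subunit gene, had 3 sites among 7 peaks, of which 2 were in the ESC lists alone. Smc1a, another cohesin subunit gene, had 1 in 7 lists, and Wapl, the cohesin release factor gene, and Baz1b, an ISWI partner gene, had 1 in 2 lists each. Near TGF-beta, BMP and Nodal genes 4 of 46 peaks were such sites, at Bmpr1a, Acvr1, Acvr2b and Ltbp1. Near cell cycle genes 4 of 38 were, at Trp53, Ccnd1, Ccnd3 and Ccne1, of which Ccne1 had no control peak within 10 kb of the gene. Its site, 6.65 kb outside the gene span and 4.59 kb from a control peak, was in the wild-type ESC list alone.

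The other genes of these lists with a site and no control peak within 10 kb were Map2, Rtl1 and Hoxc13. The site 0.710 kb from Map2, a neuronal microtubule protein gene, was 69191 bp from the nearest control peak and in the Thy1+ control list alone. The site 4.61 kb from Rtl1, an imprinted gene, was in the Thy1+ and ESC lists. The site between Hoxc13 and Hoxc12 was in 5 lists, which were SSEA1+ control, the day 10 lists with added Ctcf and the ESC lists. It was the only one among 17 peaks near Hox genes. The clustered protocadherins, whose promoter choice uses CTCF, had 3 among 49 peaks, of which 2 were in ESCs only. One of these lay 205 bp from a control peak.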

How the data were processed

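CTCF and SMARCA5 ChIP-seq or ChIPmentation peaks of 31 ChIP samples were used as 16 deposited lists, 1 for each group. The 28 input samples have no list and were left aside. The submitters' processing notes name the builds mm10 and GRCm38 and, as tools, deepTools, HOMER, MACS2, Picard, SAMtools, bedtools, Bowtie2, Trim Galore and FastQC. Versions, order, thresholds and how samples were joined are not stated there. The deposited score is 0 in every line and all intervals are 400 bp, so peaks could not be ranked or filtered by strength, partial changes are hidden, and read depth is unknown.

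Sites were day 12 Ctcf shRNA peaks overlapping no day 12 control peak by 1 bp or more. Presence in another list used the same overlap. Genes within 10 kb came from RefSeq spans of GRCm38.p6, and promoters from RefSeq windows of 250 bases before to 50 after a start. Of 349 listed genes all were found, 2 by a synonym. Named genes were 12 protein-coding genes with the most sites (ties by the larger share of sites among the gene's Ctcf shRNA peaks, then by name), all list genes with a site, 5 promoter sites for each class held by the most lists, and the 3 sites of each class farthest from a control peak. A gene that this rule takes in is not reported here.

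The sites, classes and gene lists were chosen with earlier results of these data known. Overlap counts were checked on simulated intervals with known answers. Alternatives were another overlap rule, other earlier lists, autosomes and other gene windows. Analyses ran in Python 3.11.15 with matplotlib 3.10.9, SciPy 1.17.1 and NumPy 2.4.6.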

Additional observations from a re-analysis of the deposited data

How the results depend on the processing

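No paired analysis was possible because each list joins the samples of a group, and leaving out a replicate or applying a stricter score could not be run for the same reason and because all scores are 0. A reciprocal overlap of 50% and autosomes alone moved no share beyond its interval, but neither had much room to. All 2755 sites that overlapped another sorted list had identical coordinates there. Of 31022 shared peaks, 31019 overlapped a control peak over the full 400 bp. The overlap rule had more room in the ESC lists, and gave 70.5% of sites in wild-type ESCs and 27.7% with SMARCA5. Autosomes alone kept 4705 of the 4781 sites. Counting peaks within 1 kb as shared, for presence in the other lists as well, left 4419 sites. Of these, 54.3% were in an earlier control list, 75.4% in wild-type ESCs, 11.1% in neither and 30.4% with SMARCA5. The share in an earlier control list and the share in neither were 43.9% and 16.8% without the Thy1+ control list, 48.2% and 15.2% without SSEA1- Thy1-, 45.6% and 16.5% without SSEA1+, and 30.7% and 22.3% when 2 or more of the 4 lists were required. With the Thy1+ Ctcf shRNA list in place of the Thy1+ control list, as the conflicting labels of day 3 could ask, 49.0% were in an earlier list. Presence in another Ctcf shRNA list was 38.9% without day 0 and 32.7% without Thy1+. The share near a protein-coding gene was 60.4% at 2.5 kb, 84.0% at 50 kb and 55.0% inside the span. Alternatives for the sites in neither that the day 0 Ctcf shRNA list held were chosen after seeing the data. They gave 20.1% with peaks within 1 kb as shared, 19.8% over sites more than 1 kb from a control peak, and 0.306% without exact matches of coordinates.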

Other observations

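The Ctcf shRNA-only share of the day 12 Ctcf shRNA list varied among chromosomes. It was lowest on X, at 75 of 820 peaks (9.15%, 7.36 to 11.3), and highest among autosomes on chromosome 18, at 172 of 1055 (16.3%, 14.2 to 18.7), with chromosome 17 at 11.3% and chromosome 16 at 16.1%. The Y chromosome had 5 peaks, of which 1 was such a site.

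Of the 4781 sites, 2026 were in no other list of sorted cells. Among these, 102 of 110 that overlapped a day 0 Ctcf shRNA peak had identical coordinates there (92.7%), as did 41 of 60 in the day 0 control list (68.3%) and 385 of 1473 in the wild-type ESC list (26.1%). The 3650 day 12 control peaks found in no other sorted list had 14 of 26 (53.8%), 8 of 35 (22.9%) and 461 of 2961 (15.6%). Exact matches were thus not limited to the Ctcf shRNA list, and their origin was not tested.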
